A study of Mus musculus with 2 samples.

Results

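Activated effector CD8+ T cells were the 252 cells, of 24160 kept cells and 25865 barcodes, that carried T cell receptor complex and Cd8 transcripts together with at least 2 transcripts of an effector set. A cell was kept with at least 500 genes, 1000 to 60000 unique molecular identifiers (UMIs, each standing for 1 captured transcript) and at most 15% mitochondrial UMIs. CD8+ T cells needed at least 1 UMI over Cd3e, Cd3d and Cd3g, at least 1 UMI over Cd8a and Cd8b1, none of Cd4 or Foxp3, at most 1 of Cd79a, and S100a8 plus S100a9 under 0.4% of UMIs. The effector cells were chosen by their own measured transcripts, as those CD8+ T cells with at least 2 UMIs over Pdcd1, Prf1, Gzmb, Havcr2 and Lag3. This left 63 effector cells of 120 CD8+ T cells in the KPC-shV tumour and 189 of 447 in the KPC-shZEB1 tumour.

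A CD8+ T cell that recognises antigen divides and becomes a killer cell. It releases perforin, which opens the target membrane, and granzymes, the proteases that enter through it, and it secretes interferon gamma. With continued stimulation it gains inhibitory receptors such as PD-1, TIM-3 and LAG-3 and the transcription factor TOX, a state called exhaustion, while TCF-1 and LEF-1 mark naive, memory and stem-like cells. Each receptor has a ligand on tumour or myeloid cells.

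Both tumours grew from KPC cells, a mouse pancreatic cancer line from a genetically engineered model in which Pdx-1-Cre acts in the pancreas, that were injected into the pancreas of mice. The KPC-shV line carried a control hairpin vector and the KPC-shZEB1 line a hairpin against Zeb1, both delivered by lentivirus and selected with drug, so that the hairpin was in the tumour cells and not in the T cells. The study's account places the experiment under gemcitabine, a nucleoside chemotherapy, whereas the sample labels name no drug, strain or age. There was 1 tumour and 1 library per line, so hairpin, mouse, tumour, dissociation and library cannot be told apart, and no p-value was computed for any comparison.

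The libraries held 12594 and 13271 barcodes, with 130941086 and 143461224 UMIs. The 2 libraries shared 46 barcode sequences, of which none in KPC-shV and 2 in KPC-shZEB1 belonged to effector cells. Zeb1 transcripts in tumour cells, gated by at least 2 UMIs over Krt8 and Krt18 and none of Ptprc or Cd3, differed between the tumours by less than counting error. The knockdown named by the label of the second library was thus not visible in this gate. That gate held 211 CPM (a gene's UMIs scaled to a common total over all UMIs of the class) of Zeb1 in KPC-shV (95% Poisson interval, 203 to 219) and 208 CPM in KPC-shZEB1 (196 to 220), and the effector cells, which did not carry the hairpin, held 652 and 651 CPM. A list of 5 stromal genes stood at 5012 and 5210 CPM in the same gate, against 2780 and 4158 CPM for 7 tumour genes. The part of stromal transcripts in the Zeb1 level was not tested. The study measured the knockdown separately in its KPC cells.

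The effector cells were deeply sampled relative to most of the tumour. They summed to 928312 UMIs in KPC-shV and 2717383 UMIs in KPC-shZEB1, with medians of 10101 and 9625 UMIs per cell against 3764 and 4381 over all kept cells. The other CD8+ T cells had medians of 8157 and 5761.5 UMIs. All intervals below are exact 95% intervals that cover counting error and not the spread between cells, mice or tumours.

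The values that chose the cells were spread widely. Among CD8+ T cells of KPC-shV, 37 held 0 UMIs of the 5 effector genes, 20 held 1 and so lay just outside the rule, and 16 held 2 and lay just inside it. In KPC-shZEB1 the corresponding cells numbered 191, 67 and 33. At the upper end, 26 and 64 cells held 10 or more such UMIs, and the median over effector cells was 7 in KPC-shV and 6 in KPC-shZEB1. The rule thus gathered cells with a strong effector signal and a fringe of cells near the threshold.

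The 5 genes were seldom all present in 1 cell. In KPC-shV, 21 effector cells carried UMIs of a single gene of the set and 9 carried all 5. In KPC-shZEB1, 49 carried a single gene and 19 carried all 5. Gzmb stood alone in 10 cells of KPC-shV and 4 of KPC-shZEB1, whereas Pdcd1 stood alone in 5 and 23.

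Trac, the constant region of the T cell receptor alpha chain, was at 346 and 236 CPM in effector cells of KPC-shV and KPC-shZEB1, and at 3.05 and 4.28 CPM in B cells. The B cell list stood at 51.7 and 74.0 CPM and the gamma-delta T cell list at 26.9 and 25.4 CPM in effector cells. The NK cell list stood at 282 and 377 CPM, against 249 and 376 CPM in B cells, the tumour list at 1419 and 1163 CPM and the neutrophil list at 1177 and 715 CPM. The macrophage list stood at 2941 and 6303 CPM, and 2 of 63 and 15 of 189 effector cells had at least 1% of their UMIs from it. In the other CD8+ T cells, the tumour list stood at 2950 and 1872 CPM and the neutrophil list at 1191 and 686 CPM. The macrophage list stood there at 1801 and 5207 CPM. The dendritic cell list stood at 1337 and 4294 CPM in effector cells and at 492 and 2703 CPM in the other CD8+ T cells. At least 1% of UMIs came from the dendritic cell list in 1 of 63 and 14 of 189 effector cells. The part of these lists in the differences between the 2 classes was not tested.

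The 22 and 41 effector cells without a Pdcd1 UMI carried less Cd3e, in a split that uses a gene of the rule. In KPC-shV, Cd3e was at 408 CPM in the 41 cells with a Pdcd1 UMI and 130 CPM in the 22 cells without. In KPC-shZEB1, it was at 385 CPM in 148 cells with and 62.2 CPM in 41 cells without. The macrophage and neutrophil lysozyme gene Lyz2 ran the other way, at 217 CPM with and 1968 CPM without Pdcd1 in KPC-shV, and at 1086 and 2479 CPM in KPC-shZEB1. Lef1 was also higher without Pdcd1, at 9.35 against 343 CPM in KPC-shV and 51.0 against 197 CPM in KPC-shZEB1. Requiring at least 2 Cd3 UMIs, at least 2 Cd8 UMIs and under 1% of UMIs from other lineages kept 52 of 63 and 141 of 189 effector cells. It kept fewer of the other CD8+ T cells, 32 of 57 and 108 of 258. That class also had fewer UMIs per cell, so lower depth and less secure T cell identity cannot be told apart there. Values in these stricter cells are given below where they differ.

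Effector cells took a larger share of the KPC-shZEB1 tumour, as did other lymphocytes. They were 0.538% of kept cells in KPC-shV (0.414 to 0.688) and 1.52% in KPC-shZEB1 (1.31 to 1.75), a ratio of 2.82 (2.11 to 3.82). With the cells above the S100a8 and S100a9 limit taken out of the denominator, the shares were 1.02% and 1.95% and the ratio 1.93 (1.44 to 2.60). Over the same kept cells, the ratio was 4.26 for the other CD8+ T cells (3.19 to 5.78), 3.13 for CD4+ T cells (2.53 to 3.89) and 2.56 for NK cells (1.85 to 3.61). Of cells with a Cd3 UMI, effector cells made up 7.46% and 7.23%.

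Within the CD8+ T cells, the share of effector cells did not differ between the libraries beyond counting error. They made up 52.5% of CD8+ T cells in KPC-shV (43.2 to 61.7) and 42.3% in KPC-shZEB1 (37.7 to 47.0), a ratio of 0.805 (0.603 to 1.09). Because a threshold of 2 UMIs is met more easily in a deep cell, CD8+ T cells were thinned to 4000 UMIs, which left out 3 and 51 shallower cells. The shares were then 35.9% (42 of 117) and 30.6% (121 of 396), with a ratio of 0.851 (0.595 to 1.24). At 4000 UMIs the CD8+ T cell gate was kept from full depth, whereas at 1000 UMIs all gates were read again on the thinned UMIs. At 1000 UMIs the shares were 7 of 33 and 29 of 119, a ratio of 1.15 (0.492 to 3.11). The direction differed, but depth and the changed CD8+ T cell class cannot be told apart there. Each of these intervals of the ratio includes equal shares.

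**Figure D1:**
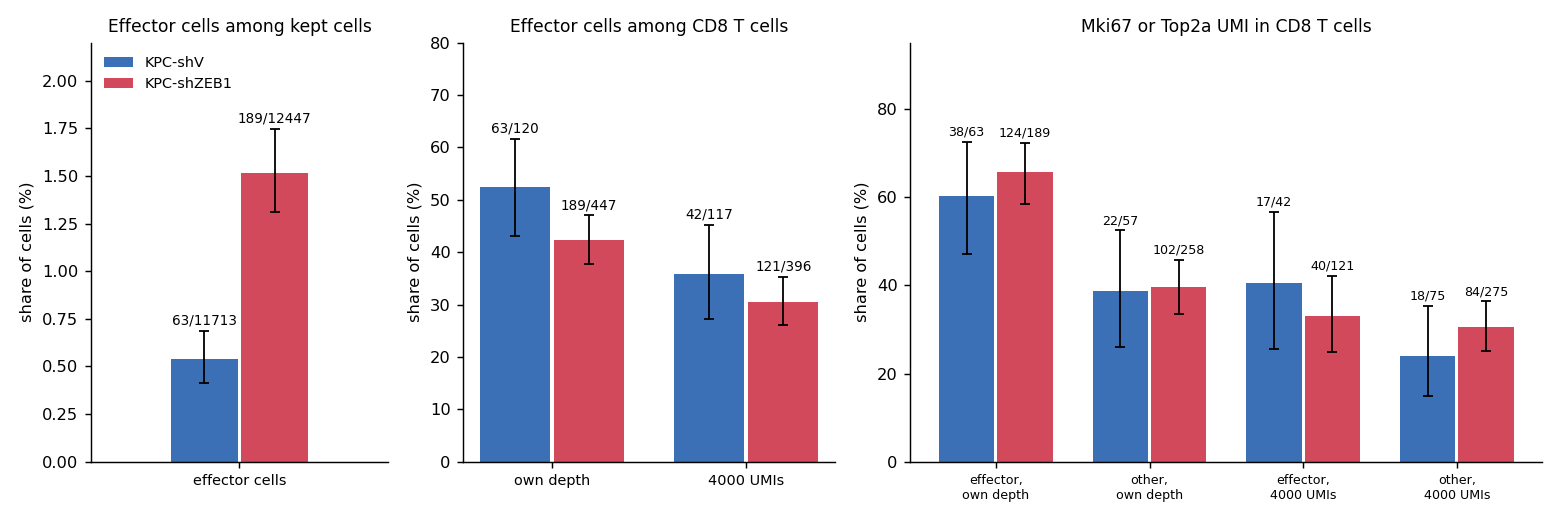
Bars give shares of cells (%) in KPC-shV (blue) and KPC-shZEB1 (red), with exact binomial 95% intervals and the numbers of cells above each bar. The left panel is effector cells of kept cells, 0.538% and 1.52%, the middle panel is effector cells of CD8+ T cells at their own depth and after thinning to 4000 UMIs, and the right panel is the share of effector and other CD8+ T cells with a Mki67 or Top2a UMI. The libraries separate in the left panel, while the intervals overlap in the other panels.

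At their own depth, effector cells carried division transcripts more often than the other CD8+ T cells in both tumours. The order held in the same cells thinned to 1000 UMIs, but not when the gates were read again at that depth. A UMI of Mki67 or Top2a, genes of proliferating cells, was found in 38 of 63 effector cells of KPC-shV (60.3%, 47.2 to 72.4) and 124 of 189 of KPC-shZEB1 (65.6%, 58.4 to 72.4). In the other CD8+ T cells it was found in 22 of 57 (38.6%) and 102 of 258 (39.5%). At 4000 UMIs per cell the effector shares were 40.5% and 33.1%, against 24.0% and 30.5% in the other CD8+ T cells, and the binomial intervals overlapped in both libraries. With the classes kept and each cell thinned to 1000 UMIs, 15 of 63 effector cells of KPC-shV held such a UMI (23.8%, 14.0 to 36.2). The other cells held one in 2 of 57 (3.51%, 0.428 to 12.1). In KPC-shZEB1 the counts were 25 of 189 (13.2%, 8.75 to 18.9) and 15 of 258 (5.81%, 3.29 to 9.41). When all gates were read again on the thinned UMIs, few effector cells remained and the order turned. It was then 0 of 7 effector against 4 of 26 other cells in KPC-shV and 1 of 29 against 6 of 90 in KPC-shZEB1. At their own depth, B cells, at medians of 4038 and 3614 UMIs, showed such a UMI in 14.2% and 19.6%. NK cells showed one in 49.0% and 41.0%, and CD4+ T cells in 35.1% and 47.0%. With the classes kept and cells thinned to 1000 UMIs, the shares were 2.92% and 5.15% in B cells and 5.88% and 10.8% in NK cells. In CD4+ T cells they were 8.77% and 14.0%, so in KPC-shZEB1 the effector share of 13.2% was not above that of CD4+ T cells.

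The genes of the effector rule set the scale for the comparison with other CD8+ T cells. Pdcd1, which encodes PD-1, was at 195 and 191 CPM in effector cells of KPC-shV and KPC-shZEB1 and at 3.97 and 3.82 CPM in the other CD8+ T cells. Prf1, perforin, was at 166 and 230 against 7.93 and 7.00 CPM. Gzmb, granzyme B, was at 378 and 143 against 7.93 and 1.27 CPM. These gaps follow from the rule and are given as a description.

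Because the same cells were cut by these UMIs, every other difference between the 2 classes is also described without a test. A gene was called when its log2 ratio, with 1 CPM added to each level, was at least 2-fold in the same direction in both libraries and it had at least 30 UMIs over the 2 classes in each. Of 7367 genes with enough UMIs, 210 were higher in effector cells, which is 2.85%, and 107 were lower, which is 1.45%. Of 247 genes in lists of T cell function, 208 had enough UMIs, and 52 of these were higher and 7 lower. The median log2 ratio over all genes with enough UMIs was 0.03 in KPC-shV and 0.01 in KPC-shZEB1.

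Genes of killing were higher in effector cells as a group. Of 10 listed genes beside the rule genes, 6 were higher and none lower, with median log2 ratios of 1.26 and 1.72. Nkg7, which encodes a cytotoxic granule protein, was at 1218 and 1129 CPM in effector cells and 354 and 163 CPM in the other CD8+ T cells. Cst7, encoding cystatin F, an inhibitor of granule cathepsins, was at 143 and 121 CPM in effector cells, with ratios of 5.16 and 11.5. Fasl and Tnfsf10, death ligands of target cell receptors, were 2.34- and 8.04-fold higher (Fasl) and 5.70- and 4.20-fold higher (Tnfsf10). The remaining called members were Serpinb9, which protects the killer cell from its own granzyme B, and Gzma.

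Of 8 granzyme genes beside Gzmb, among them Gzma as already counted above, 3 had enough UMIs and these were higher. Gzma, granzyme A, was at 657 and 575 CPM in effector cells against 75.4 and 54.1 CPM, a ratio of 8.72 (6.64 to 11.6) and 10.6 (9.07 to 12.5), and in the stricter cells the ratios were 4.97 and 3.93. In KPC-shV 605 of its 610 effector UMIs lay in 5 cells, and without these the direction turned, with 5.78 CPM left in effector cells. Gzmk, which marks early effector and memory cells, was at 35.5 and 22.8 against 5.29 and 6.04 CPM. Gzmc was at 40.9 and 82.1 against 3.97 and 1.59 CPM, but 5 cells held 97.4% and 93.7% of its effector UMIs.

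Among 12 cytokine and chemokine genes with enough UMIs, 3 were higher. Effector cells held 103 and 188 CPM of Ifng, interferon gamma, while the others held 7.93 and 5.73 CPM, giving ratios of 13 (5.77 to 36.4) and 32.9 (20.6 to 56.0). Xcl1, a chemokine that draws cross-presenting dendritic cells, was at 825 and 454 against 226 and 24.5 CPM. Tgfb1 was 2.30- and 2.52-fold higher. Ccl5, at 1119 and 1102 CPM, was 1.49-fold higher in KPC-shV and 3.15-fold higher in KPC-shZEB1 and so was not called.

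The printed promoters belong to Cxcr6, which ranked first by the smaller of its 2 ratios among called genes with at least 50 CPM, a UMI in at least 10% of effector cells and at most 50% of its UMIs in 5 cells, and to Xcl1, the called cytokine gene with the most effector UMIs. Each is the 250 bases before the start site from RefSeq (build GRCm38.p6), written 5′ to 3′ on the gene's strand, with matches to TGTGGT or its reverse complement, the core recognised by Runx factors, in capitals. The Cxcr6 window is chr9:123806227-123806476 on the plus strand, where the gene spans 123806475 to 123811760. The Xcl1 window is chr1:164935523-164935772 on the minus strand, where the gene spans 164931644 to 164935527.
Cxcr6: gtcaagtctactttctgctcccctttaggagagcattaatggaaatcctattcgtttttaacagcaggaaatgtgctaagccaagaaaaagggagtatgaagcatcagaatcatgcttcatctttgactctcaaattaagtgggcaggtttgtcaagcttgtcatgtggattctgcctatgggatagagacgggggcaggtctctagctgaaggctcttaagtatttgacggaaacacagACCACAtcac
Xcl1: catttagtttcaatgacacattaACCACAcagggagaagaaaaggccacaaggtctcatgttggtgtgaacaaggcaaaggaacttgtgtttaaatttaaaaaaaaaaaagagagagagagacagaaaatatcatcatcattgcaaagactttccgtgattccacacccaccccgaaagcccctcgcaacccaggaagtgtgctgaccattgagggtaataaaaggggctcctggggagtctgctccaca
Counted from the start site, the Runx match lay at -10 in Cxcr6 and at -227 in Xcl1. The Cxcr6 window also held 3 matches to GGAAA, the core for NFAT factors, and the Xcl1 window 1, on either strand and apart from the Runx match. Of 32851 windows of this length, 14.0% held TGTGGT and 55.6% held GGAAA. A match is a run of letters and was not tied to binding in these cells.

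Other inhibitory receptors stood higher together with Pdcd1, Havcr2 and Lag3. Of 12 further checkpoint genes with enough UMIs, 6 were higher and none lower. Ctla4, the competitor of CD28 for its ligands, was at 225 and 235 CPM in effector cells against 29.1 and 61.4 CPM. Cd200r1 was at 52.8 and 64.4 against 6.61 and 8.59 CPM. Entpd1, encoding the ectonucleotidase CD39, was at 171 and 268 against 67.4 and 130 CPM, and Cd160, Cd244a and Cd96 were between 2.07- and 4.10-fold higher, although Cd244a turned in direction in 1 library among non-dividing cells. Tigit was called in neither direction, with ratios of 1.63 (0.830 to 3.35) in KPC-shV and 6.39 (3.99 to 10.7) in KPC-shZEB1.

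Transcription factors of effector and exhausted cells were the next group, with 7 of 19 higher and none lower. Tox, a factor required for exhausted cells to persist, was at 566 and 587 CPM against 192 and 156 CPM. Irf8 was at 203 and 261 against 37.0 and 53.1 CPM. Id2, which represses memory programmes, was at 353 and 384 against 124 and 112 CPM. Ikzf2, Ikzf3, Rora and Bhlhe40 were between 2.14- and 4.41-fold higher. Tbx21, which encodes T-bet, was 1.88-fold higher in KPC-shV and 6.07-fold higher in KPC-shZEB1.

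Naive and memory genes ran in the opposite direction. Of 15 with enough UMIs, none was higher and 6 were lower, with median log2 ratios of -0.99 and -1.20. Lef1 was at 151 and 96.0 CPM in effector cells against 549 and 506 CPM, and in the stricter cells its ratios of 0.275 and 0.190 became 0.171 and 0.0647. Tcf7, which encodes TCF-1, was at 85.1 CPM against 231 CPM in KPC-shV and had a ratio of 0.40 (0.327 to 0.488) in KPC-shZEB1. Klf2 and S1pr1, which keep T cells circulating, were at 180 and 151 against 391 and 382 CPM for Klf2, and at 22.6 and 12.5 against 48.9 and 72.9 CPM for S1pr1.

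The gap in naive genes was smaller when effector cells without a division transcript were set against all other CD8+ T cells. The other CD8+ T cells were not split by division here. Their dividing cells held 464584 of 756322 UMIs in KPC-shV and 2126701 of 3143201 UMIs in KPC-shZEB1. Set against the other CD8+ T cells, 136 of 5529 genes were higher in non-dividing effector cells (2.46%) and 191 lower (3.45%). Of 14 naive and memory genes with enough UMIs, Id3 and Igfbp4 were lower, and neither Lef1 nor Tcf7 was called. Lef1 was at 289 and 277 CPM in these cells. Killing genes were higher in 6 of 9 and transcription factors in 8 of 18.

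Among residency and homing genes, Cxcr6 had the largest smaller ratio. Of 17 with enough UMIs, 8 were higher and none lower. Cxcr6, the receptor for CXCL16, was at 178 CPM in effector cells against 13.2 CPM in KPC-shV and at 172 against 14.0 CPM in KPC-shZEB1, ratios of 13.4 (7.13 to 28.6) and 12.3 (9.0 to 17.1). NK cells held 26.6 and 19.9 CPM of Cxcr6 and B cells 1.83 and 3.17 CPM. Itga4, Itga1 and Itgal, integrins of tissue entry and retention, were between 2.03- and 3.64-fold higher. Itgae, the alpha chain of CD103, was at 21.5 and 31.3 against 30.4 and 19.4 CPM, and Cd69 at 117 and 54.8 against 153 and 99.9 CPM. Neither of these usual residency markers was called. Ccr2 was called higher, but 5 cells held 91.4% of its effector UMIs in KPC-shV and its ratio in the stricter cells of that library was 0.571.

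Costimulatory and cytokine receptors were higher in 8 of 18 and lower in none. Tnfrsf9, which encodes 4-1BB and is induced by recent antigen contact, was at 517 and 658 CPM against 58.2 and 56.3 CPM. Tnfrsf4, encoding OX40, was at 78.6 and 119 against 9.26 and 11.8 CPM. Il2ra, the high-affinity chain of the interleukin-2 receptor, was at 39.9 and 97.9 against 2.64 and 7.64 CPM, and Il2rb at 459 and 437 against 210 and 113 CPM. Icos and Tnfrsf18 were between 2.76- and 3.48-fold higher.

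Receptors shared with NK cells were higher in 5 of 8 and lower in 1. Klrd1 and Klrc1, which together form the CD94/NKG2A inhibitory receptor, were at 347 and 240 against 111 and 66.8 CPM for Klrd1, and at 123 and 128 against 18.5 and 12.1 CPM for Klrc1. The last 600 bases of Klrc1 transcripts share 29.3% of their 60-base words with other genes, mostly Klrc2, so its counts are uncertain. Klra7, an inhibitory Ly49 receptor, had ratios of 0.407 and 0.0734 but rested on 4 and 3 effector cells, and in KPC-shV the direction turned with at least 2 Cd3 and 2 Cd8 UMIs.

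**Figure D2:**
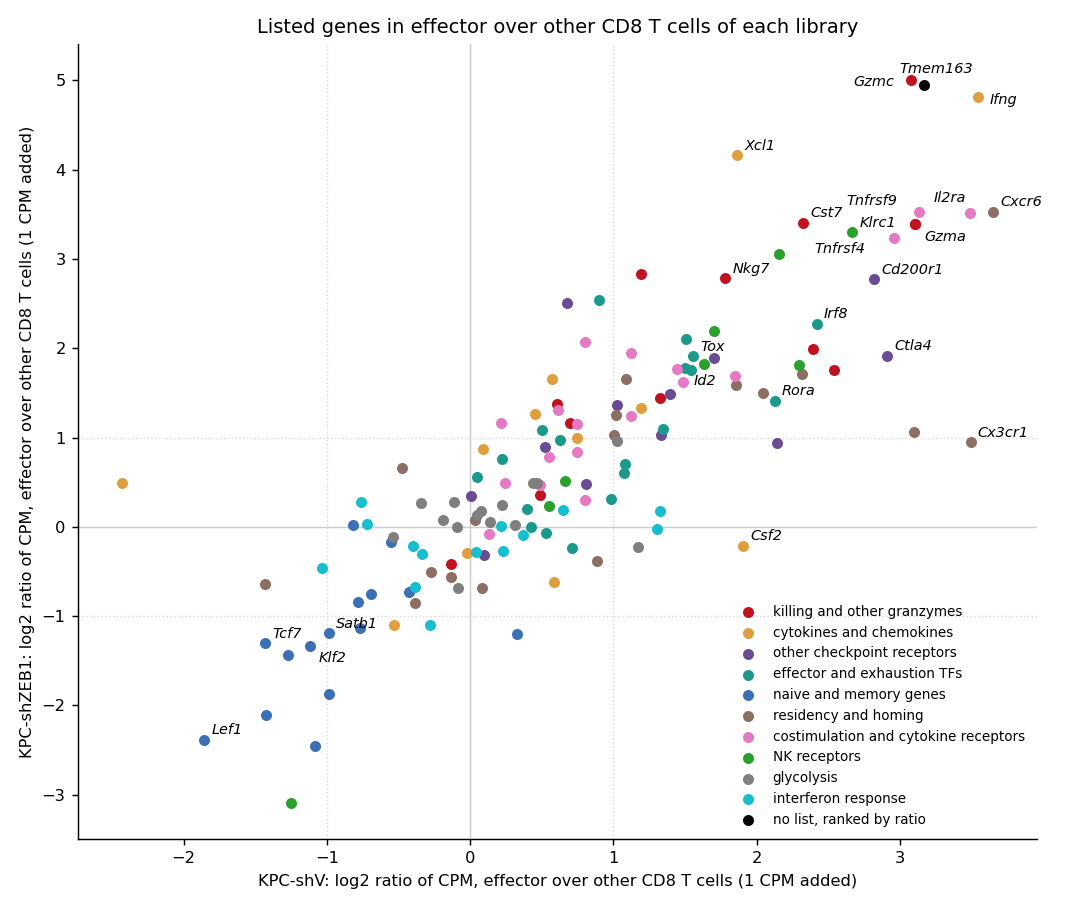
Each point is a listed gene with enough UMIs, at its log2 ratio of CPM, effector over other CD8+ T cells, in KPC-shV (horizontal) and KPC-shZEB1 (vertical), coloured by list, with Tmem163 in black as a gene outside the lists. Dotted lines mark 2-fold. Cxcr6 lies at 3.65 and 3.53 in the upper right with Ifng and Tnfrsf9, naive and memory genes lie in the lower left with Lef1 at -1.86 and -2.39, and glycolysis genes lie near 0.

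No interferon response gene of 14 and no glycolysis gene of 15 was called, with median log2 ratios of -0.12 and -0.16 for the former and 0.07 and 0.13 for the latter. Among 19 T cell receptor signalling genes, Trac alone was higher. Of 16 S phase genes 2 were higher, with median log2 ratios of 0.95 and 0.78, and of 17 G2 and M phase genes 2 were higher, with medians of 1.23 and 0.51. The G2 and M phase genes Ccna2 and Kif11 turned in direction among non-dividing cells. Among 13 apoptosis genes, Fasl and Bcl2a1d were higher, with medians of 0.48 and 0.47 over the list. Bcl2a1d belongs to a family whose copies share 84.3% of these words.

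Ranking outside the lists named further genes. Tmem163, a zinc transporter gene, was at 353 and 480 CPM in effector cells against 38.3 and 14.6 CPM, although B cells held 284 and 217 CPM. Atp10a, a phospholipid flippase gene, was at 440 and 639 against 66.1 and 73.2 CPM. Phactr2 was 8.05- and 6.49-fold higher and Dapk2 5.70- and 13.9-fold higher. On the lower side, Fam241a was at 51.7 and 38.6 against 171 and 163 CPM, Ifngr2, a chain of the interferon gamma receptor, at 24.8 and 49.7 against 75.4 and 127 CPM, and Cmah at 49.6 and 32.8 against 126 and 130 CPM. The study's own subset genes included Dscam, a cell adhesion gene, which was at 240 and 148 against 11.9 and 13 CPM, and which NK cells held at 199 and 221 CPM.

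Effector cells were also set against NK cells, the other killer lymphocytes. Of 7426 genes, 165 were higher in effector cells than in NK cells (2.22%) and 73 lower (0.983%), again without a test. Of the 10 killing genes, Cst7 was higher and none was lower. Of 12 checkpoint genes beside the rule genes, 6 were higher, Tigit, Ctla4, Nt5e, Cd200r1, Cd101 and Cd96, and none was lower. Tox was at 566 and 587 CPM in effector cells and 165 and 195 CPM in NK cells, and Ikzf2 at 1373 and 1144 against 243 and 469 CPM. Eomes, a factor of NK and memory cells, was at 22.6 and 12.5 against 49.1 and 85.6 CPM.

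**Figure D3:**
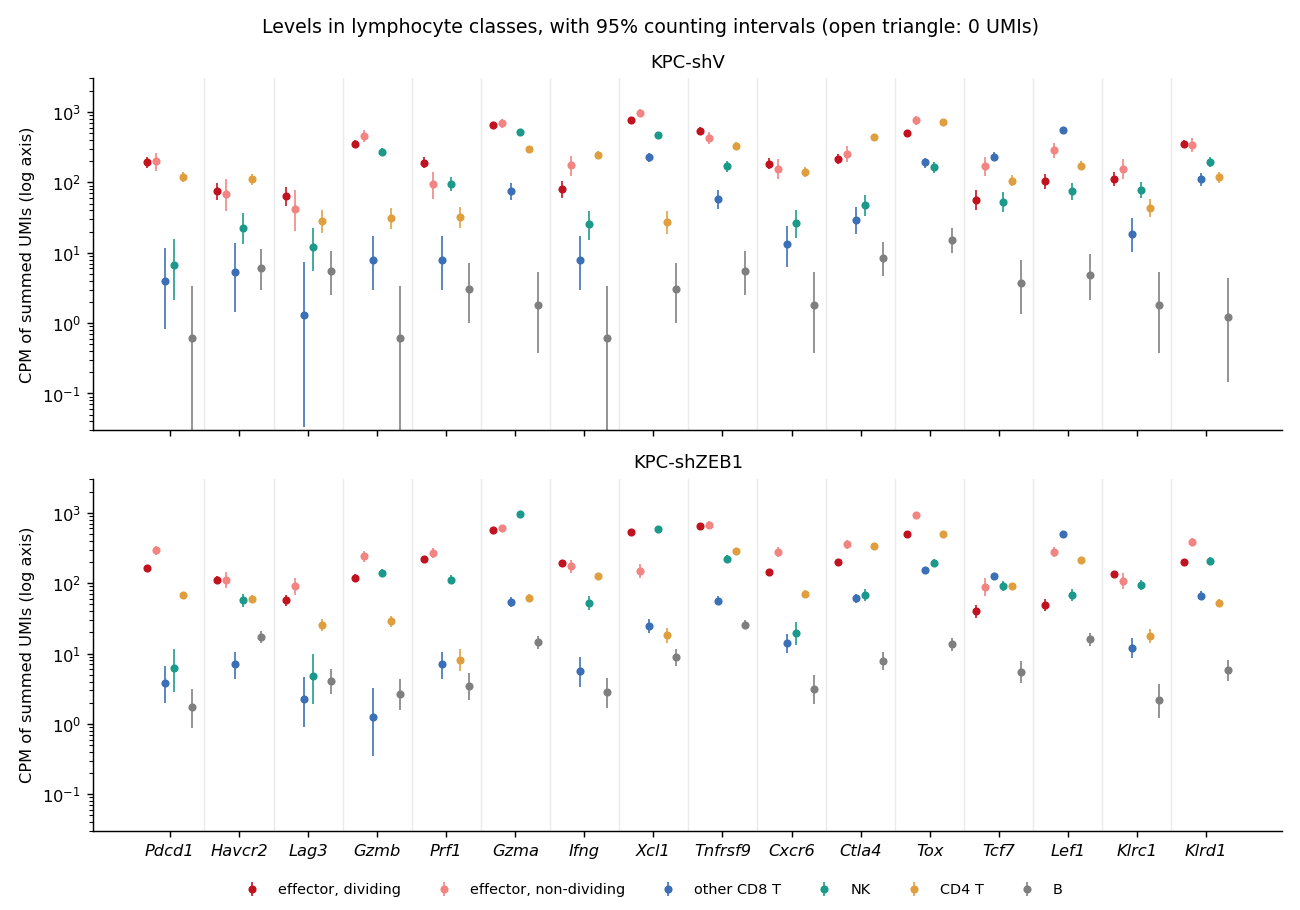
Levels are CPM of summed UMIs on a log axis, with exact Poisson 95% intervals, for 16 genes in dividing and non-dividing effector cells, other CD8+ T cells, NK, CD4+ T and B cells of KPC-shV (top) and KPC-shZEB1 (bottom). Cxcr6 in both effector classes, between 145 and 277 CPM, stood above other CD8+ T cells at 13.2 and 14.0 CPM, and Lef1 was highest in the other CD8+ T cells at 549 and 506 CPM.

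The effector cells themselves were uneven, shown here for 6 genes. Gzma had 610 UMIs in KPC-shV, which lay in 9 of 63 cells, with 300 in a single cell and 605 in the top 5. In KPC-shZEB1 it had 1563 UMIs in 54 of 189 cells, with 258 in a single cell and 863 in the top 5. A level of Gzma over the effector cells was therefore the level of a few cells. For Ifng, 3 cells of 21 with a UMI held 50% of the UMIs in KPC-shV and 2 of 58 in KPC-shZEB1, where 1 cell held 209 of 512 UMIs. Gzmb reached 50% in 5 cells in each library, of 34 and 58 with a UMI.

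Pdcd1 was spread more evenly, although it is a gene of the rule, so its own UMIs helped to choose the cells. It was found in 41 and 148 effector cells, and 9 and 42 cells held 50% of its UMIs. Prf1, also a gene of the rule, reached 50% in 5 and 10 cells, of 34 and 101 with a UMI. No cell held more than 15 UMIs of Pdcd1 in KPC-shV or 11 in KPC-shZEB1.

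**Figure D4:**
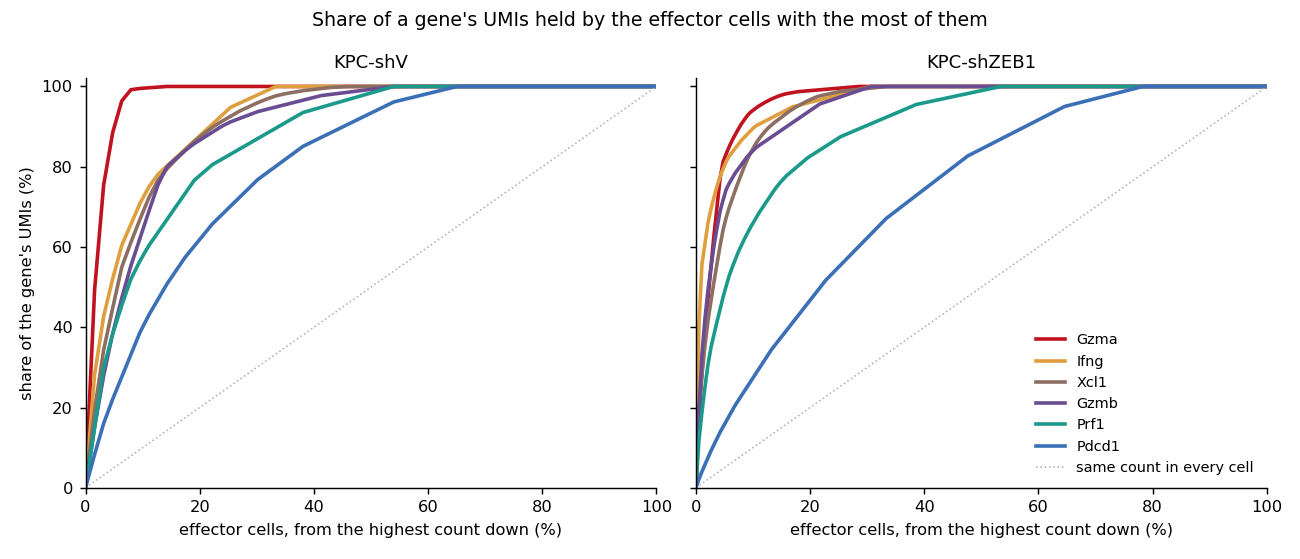
Curves give the share of a gene's UMIs (%) held by the effector cells with the most of them, against the share of effector cells (%) taken from the highest count down, for 6 genes in KPC-shV (left) and KPC-shZEB1 (right). The dotted diagonal is an equal count in every cell. Gzma in KPC-shV climbs steepest, with 2 cells holding 50% of its UMIs, and Pdcd1 in KPC-shZEB1 is the closest to the diagonal, with 42 cells holding 50%.

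Genes were also paired within cells, which is a description since deep cells carry more of both. In KPC-shV, 38 of the 41 cells with Pdcd1 also had Tox and 33 had Cxcr6. In KPC-shZEB1, 135 of 148 had Tox and 114 had Cxcr6. Over all effector cells, Tox was found in 49 of 63 and 157 of 189, and Cxcr6 in 38 and 126. Pdcd1, a gene of the rule, was itself found in 41 and 148. Of cells with an Ifng UMI, 20 of 21 and 56 of 58 also had Pdcd1, while 1 of 21 and 16 of 58 had Gzma. Havcr2 and Tcf7 met in 3 cells of KPC-shV, among 24 with Havcr2 and 29 with Tcf7, and in 14 cells of KPC-shZEB1, among 97 and 52. Pdcd1 and Tcf7 met in 14 and 34 cells.

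Gzma was found in a larger share of effector cells of KPC-shZEB1, although the difference was not resolved. The shares were 14.3% (9 of 63) and 28.6% (54 of 189), with 0.730% and 2.75% in B cells. At 4000 UMIs per cell they were 11.9% (5 of 42; 3.98 to 25.6) and 21.5% (26 of 121; 14.5 to 29.9), a ratio of 1.8 (0.682 to 6.02). NK cells held a Gzma UMI in 39.2% and 50.4% of cells.

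Dividing and non-dividing effector cells were split by Mki67 and Top2a, so their cell cycle genes are again a description. There were 38 dividing and 25 non-dividing cells in KPC-shV, and 124 and 65 in KPC-shZEB1. The dividing cells were deeper, with medians of 13907.5 and 11565 UMIs against 7790 and 7199. Of 5352 genes, 168 were higher in dividing cells (3.14%) and 33 lower (0.617%). The median log2 ratio over all genes was 0.07 and 0.05.

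All 16 G2 and M phase genes with enough UMIs and 10 of 14 S phase genes were higher in dividing cells. Pclaf, a factor of DNA replication, was at 300 against 12.8 CPM in KPC-shV and 137 against 10.7 CPM in KPC-shZEB1. Stmn1, which destabilises microtubules, was at 515 against 85.0 CPM and 310 against 89.4 CPM. Mcm3, Dut and Smc2 ranked with these.

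None of the 5 rule genes was called, and Pdcd1 was at 193 against 200 CPM in KPC-shV and 165 against 293 CPM in KPC-shZEB1. None of the 10 killing genes, the 10 checkpoint genes with enough UMIs or the 17 transcription factors was called. Of 13 naive and memory genes, 5 were lower, Lef1, Tcf7, Bach2, Satb1 and Txk, with Satb1 at 358 against 1122 CPM in KPC-shV and 333 against 948 CPM in KPC-shZEB1. Ccl5 was at 763 against 2168 CPM and 900 against 1881 CPM. When at least 2 Cd3 and 2 Cd8 UMIs were required, no listed gene was called lower, and the Lef1 difference turned in direction in 1 library with at least 3 effector UMIs.

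Markers of other cells moved with this split. The macrophage list was at 3668 CPM in dividing against 799 CPM in non-dividing cells of KPC-shV, and at 6998 against 3623 CPM in KPC-shZEB1, and C1qa, C1qb, C1qc and Cd68 were called higher, as were H2-Ab1, H2-Aa and Cd74. At least 1% of UMIs came from that list in 2 of 38 and 14 of 124 dividing cells and in 0 of 25 and 1 of 65 non-dividing cells. Their part in the split was not tested.

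Between the tumours, the genes of the effector cells were compared in summed UMIs. Of 9828 genes, 558 were at least 2-fold higher in KPC-shZEB1, which is 5.68%, and 157 lower, which is 1.60%, with a median log2 ratio of 0.04. In B cells of the same libraries 583 genes were higher (5.01%) and 208 lower (1.79%). Of 229 listed genes with enough UMIs, 9 were higher and 7 lower. No gene of the transcription factor, killing, NK receptor, T cell receptor signalling, glycolysis or apoptosis lists was called. Pdcd1 had a ratio of 0.981 (0.827 to 1.17), Tox of 1.04 (0.940 to 1.15), Ctla4 of 1.04 (0.891 to 1.23), Cxcr6 of 0.967 (0.808 to 1.16) and Lag3 of 1.11 (0.812 to 1.53). Havcr2 had a ratio of 1.51 (1.16 to 2.00). In non-dividing cells Prf1 and Lag3 had ratios of 2.89 (1.84 to 4.74) and 2.14 (1.08 to 4.74). With 1 library per group, the spread between mice is unknown.

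Among the 5 genes of the rule, whose levels are a description because they chose the cells, Gzmb was the one called. It was at 378 CPM in KPC-shV and 143 CPM in KPC-shZEB1, a ratio of 0.379 (0.327 to 0.439), and without the 5 highest cells of each library the ratio was 0.367. In the stricter cells it was 0.517. NK cells held 272 and 140 CPM. Prf1 went the other way, at 166 and 230 CPM, a ratio of 1.39 (1.16 to 1.66), and 1.86 in the stricter cells.

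Gzma had a ratio of 0.875 (0.797 to 0.963), which rested on a handful of cells. Without the 5 highest cells of each library, 5 UMIs remained in KPC-shV and 700 in KPC-shZEB1, and the ratio was 45.6 (19.5 to 141). This cut was unequal, since 9 cells of KPC-shV and 54 of KPC-shZEB1 carried a Gzma UMI. The mean over cells of the per-cell Gzma level gave a ratio of 1.20. Ifng had a ratio of 1.82 (1.46 to 2.29), and 1.51 (1.03 to 2.28) without the 5 highest cells of each library, but the mean over cells of the per-cell level gave 0.711. The direction thus depended on weighing by UMIs or by cells for both genes, and for Gzma also on the few highest cells.

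Of 18 costimulatory and cytokine receptor genes 1 was called between the tumours, and of 20 residency and homing genes 1 was higher and 2 were lower, with a median log2 ratio of 0.22 over the latter list. Il2ra was at 39.9 and 97.9 CPM, a ratio of 2.46 (1.74 to 3.56) and 3.40 without the 5 highest cells, and in NK cells it was at 15.9 and 63.7 CPM. The CD4 and regulatory T cell list, which also holds Il2ra, was at 86.2 and 160 CPM in effector cells and 487 and 457 CPM in CD4+ T cells, with 2 of its 5 genes at 0 in the effector cells of each library, where the rule required no Cd4 or Foxp3. Its part in the Il2ra difference was not tested. Cxcr4 was at 101 CPM in KPC-shV and 36.1 CPM in KPC-shZEB1, a ratio of 0.356 (0.266 to 0.478), and its levels in NK cells were 120 and 124 CPM. Cd69, an early activation and retention marker, was at 117 and 54.8 CPM, a ratio of 0.467 (0.362 to 0.603). Ly6c2 was lower as well, at 165 and 48.6 CPM, and its transcripts share 27.6% of their end words with Ly6c1. Tcf7 had a ratio of 0.588 (0.442 to 0.786), short of the call.

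Xcl1 was at 825 CPM in KPC-shV and 454 CPM in KPC-shZEB1, a ratio of 0.551 (0.503 to 0.604), also short of the call. In the other CD8+ T cells it was at 226 and 24.5 CPM, and in NK cells at 468 and 593 CPM. Among the other called members, Csf2, Usp18 and Ung were lower and Gzmf, Lta, Il10, Cd200, Ifit2, Gbp2, Gbp4 and Ccr9 higher. These were at 53.4 CPM or less in either library apart from Gbp2, at 77.6 and 194 CPM, and Csf2, Usp18, Ung, Gzmf, Lta and Il10 turned in direction without the 5 highest cells of the higher library. Pclaf, Sidt1 and Dtl ranked among the lowest ratios, at 0.489, 0.446 and 0.477.

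Of the genes ranked highest in KPC-shZEB1, several are known from other cells. Ctrb1, a digestive enzyme of pancreatic acinar cells, was at 19.4 CPM in effector cells of KPC-shV and 126 CPM in KPC-shZEB1, and at 22.6 and 159 CPM in B cells. H2-Ab1 and H2-Eb1, class II genes of antigen-presenting cells, were at 220 and 935 CPM and at 268 and 929 CPM in effector cells. The macrophage list was at 2941 and 6303 CPM in effector cells and 2124 and 6054 CPM in B cells. Pde7b and Rcan1 were 4.10- and 3.81-fold higher, and in the stricter cells 1.45- and 2.12-fold. The part of such UMIs in the comparison between tumours was not tested.

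**Figure D5:**
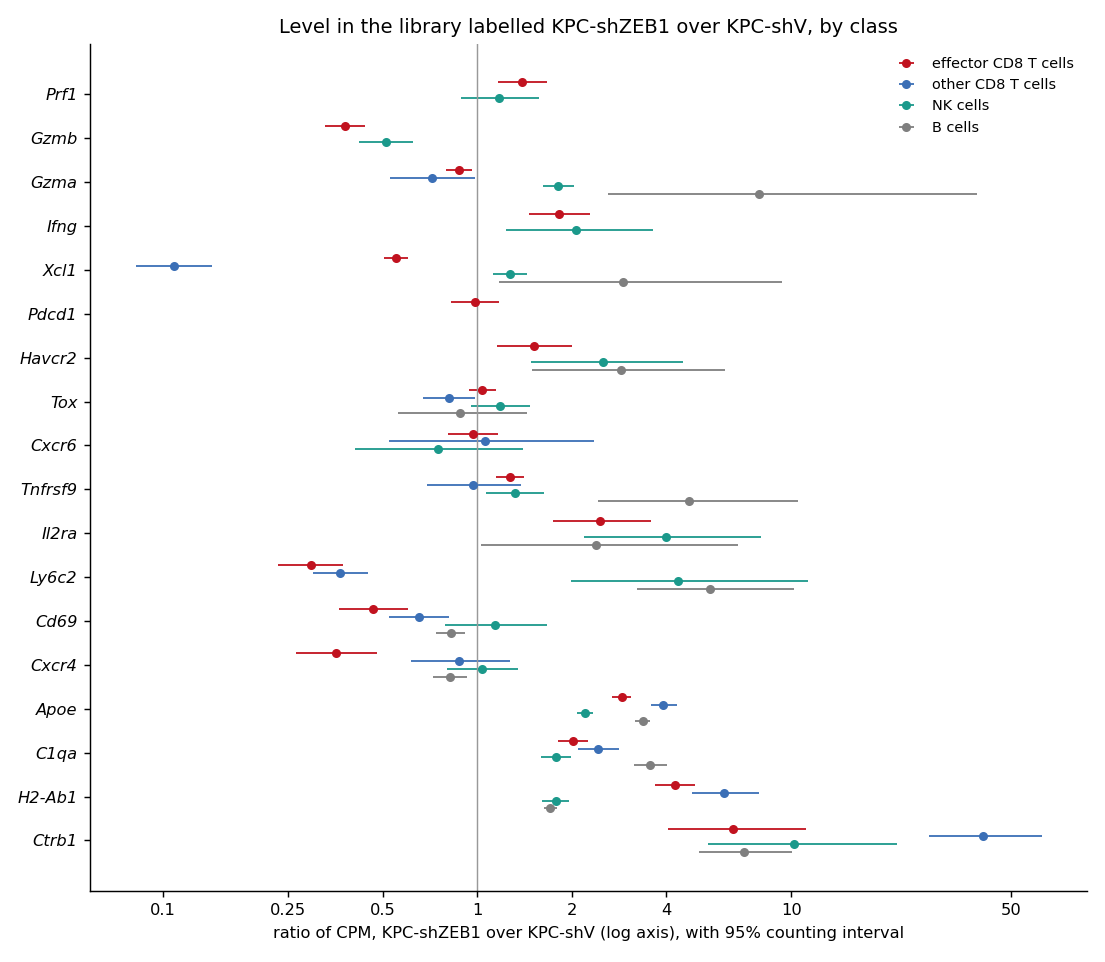
Points are ratios of CPM, KPC-shZEB1 over KPC-shV, on a log axis with exact 95% counting intervals, in effector (red), other CD8+ T (blue), NK (green) and B (grey) cells, drawn where the class had enough UMIs. Pdcd1, Tox and Cxcr6 in effector cells lie at 0.981, 1.04 and 0.967, Gzmb at 0.379 and Il2ra at 2.46, and Apoe, C1qa and Ctrb1 lie above 1 in each class drawn.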

How the data were processed

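The authors prepared 1 single-cell library per tumour with 10x Genomics 3′ chemistry and deposited counts of UMIs per gene and barcode from Cell Ranger 7.0.1 (per the labels, build mm10); intron counting is not given in the sources used here. From these counts, cells were filtered and gated as described and UMIs were summed per class and library, giving CPM. Genes needed 30 UMIs over the classes compared, and 1 CPM was added before log2 ratios. Poisson, Clopper-Pearson and conditional binomial 95% intervals came from scipy 1.17.1. With 1 library per group no test was run. Named genes were list members and the ranked genes defined above by CPM, share of cells and concentration. Members and lists were chosen with earlier results of these data known. The calling rule was checked on Poisson counts simulated from summed UMIs of KPC-shV classes. The simulation had no spread between cells, so it does not cover genes concentrated in a few cells. Doublets were scored with Scrublet in scanpy 1.11.5 and kept, 3 and 14 effector cells lying above a score of 0.2; alternatives appear in the closing section. Sequences came from RefSeq. Some items are not reported here.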

Additional observations from a re-analysis of the deposited data

Results flagged for a closer look

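In 5 listed genes the dividing over non-dividing log2 ratio in effector cells had opposite signs in the 2 libraries, and the difference was not tested. Col3a1 was at 1.96 in KPC-shV and -2.16 in KPC-shZEB1, and Col1a1, likewise a collagen gene of fibroblasts, was at 2.73 and -1.70. The epithelial genes Epcam and Cdh1 ran the other way, at -2.92 and 1.57 for Epcam and at -1.80 and 1.64 for Cdh1. The inhibitory receptor gene Cd244a was at 2.12 and -1.08.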

How the results depend on the processing

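No paired analysis was possible because each group has 1 library. Of the shares and counts, 90 alternative values stayed near the reported one and 34 moved; of the values of named genes, 990 stayed, 269 moved and 29 changed direction; of the counts for single lists that differed from the reported one, 217 moved and 59 stayed near it. The causes were not tested.

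The effector share ratio was 3.90 over kept cells and 1.15 over CD8+ T cells at 1000 UMIs per cell, where all gates were read again and no dividing effector cell was left in KPC-shV. It was 1.93 under the S100a8 and S100a9 limit. For effector over other CD8+ T cells, the genes lower were 193 with at least 3 effector UMIs, 182 without cells rich in other lineages, 218 with at least 10 UMIs, 53 with 10 CPM added and 191 with non-dividing cells, where 136 were higher. Listed genes lower were 12 in the stricter cells and 4 with 10 CPM added. For dividing over non-dividing cells, genes higher were 105 with at least 2 Cd3 and 2 Cd8 UMIs, 106 by means over cells, 369 with at least 10 UMIs and 109 with 10 CPM added. Genes lower were 10, 11 and 74 under the first 3 of these and 5 in the stricter cells. Listed genes lower were 0 with at least 2 Cd3 and 2 Cd8 UMIs and in the stricter cells, 4 without cells rich in other lineages and 2 by means over cells. Between libraries, genes higher were 305 in the stricter cells, 1093 with at least 10 UMIs and 196 with 10 CPM added, and genes lower were 239 with at least 2 Cd3 and 2 Cd8 UMIs, 357 with at least 10 UMIs and 60 with 10 CPM added. Listed genes lower were 16 with at least 2 Cd3 and 2 Cd8 UMIs, 15 in the stricter cells, 11 by means over cells and 4 with 10 CPM added, where 4 were higher.

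Directions changed as follows, on the log2 scale and for the library furthest against the reported direction. With at least 2 Cd3 and 2 Cd8 UMIs, effector over other cells gave 4.41 for Klra7 and -0.23 for Ccr2, and in the stricter cells 4.57 and -0.74. With non-dividing cells it gave -0.31 for Mcm6, -0.11 for Cd244a, -3.96 for Ccna2 and -1.68 for Kif11. Without cells rich in other lineages Il10 between libraries was -0.60, and -0.40 in the stricter cells. Lef1 in dividing over non-dividing cells was 0.48 with at least 3 effector UMIs, where Ccr2 in effector over other cells was -2.11. Leaving out the 5 highest cells of the higher class, which lowers that class by construction, gave for effector over other cells 0.16 (Dapl1), 4.27 (Klra7), -0.075 (Ccr2), -3.49 (Gzma) and -1.15 (Gzmc). It gave for dividing over non-dividing cells 0.17 (Icos), -0.16 (Ube2c), 0.50 (Lef1), 0.066 (Il12rb2), -4.17 (Csf2) and -3.78 (Gzmc). Between libraries it gave -1.21 (Il10), 0.87 (Ung), 0.24 (Usp18), 2.06 (Csf2), -2.08 (Gzmf) and -0.085 (Lta).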
